A study of Mus musculus with 4 samples.

Results

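The 10 genes described here encode RNA-binding proteins of neurons and their precursors: the Hu proteins Elavl2, Elavl3 and Elavl4, the splicing regulators Nova1 and Nova2, the polypyrimidine tract binding proteins Ptbp1 and Ptbp2, the Musashi proteins Msi1 and Msi2, and the microexon regulator Srrm4. They are a named set taken by symbol and chosen with earlier results of these data known. All 10 were found among the 22558 gene symbols of the files. Whole retinas were taken from C57/BL/6J mice, as the labels name the strain, at postnatal day 14 (P14) and postnatal day 7 (P7). The 4 groups were Fezf2 knockout (KO) at P14, littermate controls labelled wildtype at P14, KO at P7 and littermate controls at P7. Each group was sequenced as 1 library, so no group had a replicate. The labels do not give how the Fezf2 allele was made or how many animals or retinas went into a library.

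These proteins set which exons are used and how long an mRNA lasts as a neuron matures. Ptbp1 holds neural exons out of mRNAs in progenitors and non-neuronal cells, among them an exon that the Ptbp2 mRNA needs, and Ptbp2 takes over in newly born neurons until it too declines. Srrm4 promotes the inclusion of very short neuronal exons, the Nova proteins bind YCAU elements around neuronal exons, the neuronal Hu proteins bind U-rich elements and stabilise mRNAs, and the Musashi proteins act in progenitors and, in mouse photoreceptors, in the splicing of photoreceptor exons. The values here are levels of whole genes and do not show which exons were used.

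Levels are in FPKM, fragments scaled to transcript length and to the mapped fragments of the library, and each has a deposited lower and upper bound. A difference is called beyond counting error if neither library’s bounds reach into the other’s, which says nothing about variation between mice. For the 40 values of the 10 genes the bounds spanned 2.86% to 9.84% of their midpoint on each side, which is worth 413 to 4879 fragments if the bounds are 2 standard deviations of a counting error away. All 4 values of Msi1 lay above their own upper bound, so bounds were compared only with bounds. Differences are taken between log2(FPKM + 1) values, a scale that shrinks changes at low levels. In the KO libraries Fezf2 was at 0.126 FPKM at P14 and 0.592 FPKM at P7, against 4.02 FPKM in the control at P14 and 8.32 FPKM in the control at P7. Some markers of neighbouring tissue differed between the genotypes: pigment epithelium markers summed to 105 FPKM in KO retina and 152 FPKM in control retina at P14 (0 of 6 higher and 6 lower beyond counting error), and to 106 FPKM in KO retina and 92.1 FPKM in control retina at P7 (2 of 6 higher, 0 lower). At P14 ciliary body and vitreous markers (0 of 5 higher, 5 lower) summed to 8.08 FPKM in KO retina against 62.9 FPKM in control retina. Blood markers at P14 (0 of 4 higher, 4 lower, all 5 summed) were at 356 FPKM in KO retina against 1139.95 FPKM in control retina. At P7 ciliary body and vitreous markers (3 of 5 higher, 0 lower) summed to 33.5 FPKM in KO retina against 14.7 FPKM in control retina. Blood markers at P7 (0 of 4 higher, 0 lower, all 5 summed) were at 316 FPKM in KO retina against 291 FPKM in control retina. The 5 lens markers summed to 0.933 FPKM in KO retina and 5.78 FPKM in control retina at P14. At P7 they summed to 6.92 FPKM in KO retina and 1.25 FPKM in control retina. Only 1 of the 5 reached 1 FPKM in a library at P14, where it was lower in KO retina beyond counting error. At P7 2 did, and these were higher in KO retina. The part of these markers of neighbouring tissue in the differences described here was not tested.

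For 8 of the 10 genes, all but Elavl4 and Msi2, each genotype's age difference exceeded in size the genotype difference at either age. From P7 to P14 the levels of Srrm4, Ptbp1, Ptbp2, Nova1, Nova2, Msi1 and Elavl3 fell and that of Elavl2 rose in both genotypes, while Elavl4 and Msi2 did not pass the test. Of the 10 genes, 1 was higher and 7 lower at P14 beyond counting error in the KO retina, against 29% of 13044 genes higher and 39.4% lower overall. In the control retina 2 were higher and 7 lower, against 27.6% of 13112 genes higher and 37.7% lower overall. A limma fit with genotype and age as additive terms over the 4 libraries had 1 of the 10 risen and 7 fallen in its age term at a Benjamini-Hochberg adjusted p below 0.05. The fit called 30.7% of 12934 genes higher and 40.6% lower with age, so a fall is a common outcome in these libraries. The median age difference of the 10 genes was -0.62 on the log2 scale, against -0.08 for all genes fitted. The fit has 1 residual degree of freedom and takes most of its error from a spread shared between genes. Its residual is the difference of the genotype differences at the 2 ages, so its p-values do not rest on replicate libraries of a group.

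**Figure D1:**
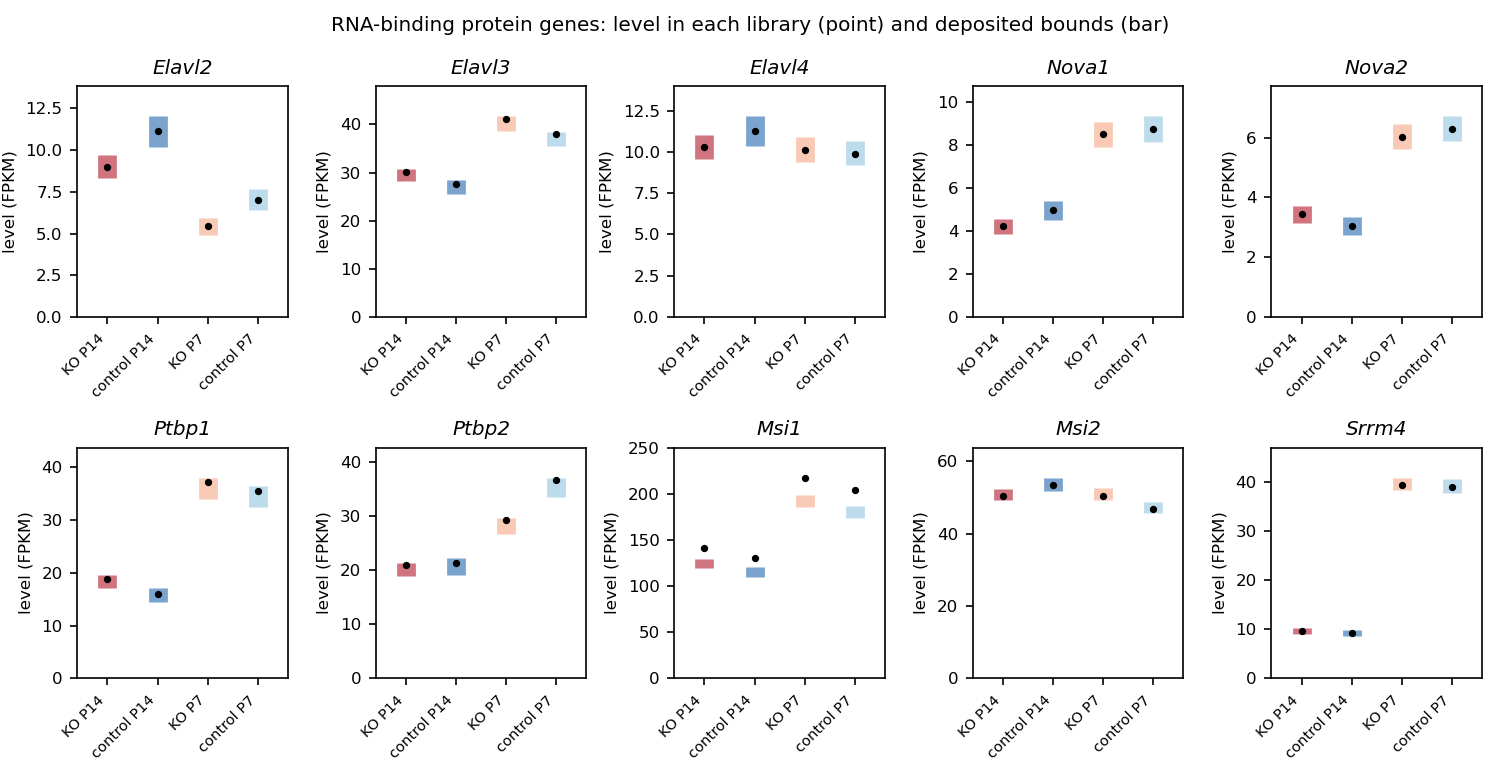
Level of each gene in FPKM (vertical axis, from 0) in the KO P14, control P14, KO P7 and control P7 libraries, with the point at the level and the bar spanning the deposited bounds. Srrm4 stood at 9.62 and 9.32 FPKM in the P14 libraries against 39.3 and 39.0 FPKM in the P7 libraries, and Elavl2 was lower in the KO library at each age.

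Between the genotypes the same genes lay close together. At P14 Elavl2 alone of the 10 differed beyond counting error, being lower in the KO retina, against a background of 7.45% of 12804 genes higher and 8.24% lower. At P7 Elavl2 and Ptbp2 were lower and Elavl3 and Msi2 higher in the KO retina, against 7.34% of 12665 genes higher and 6.1% lower. Elavl2 was the only one of the 10 that was apart in the same direction at both ages, against 1.42% of 12223 genes lower and 1.5% higher at both ages. The genotype term of the limma fit called 0 of the 10 genes, and 0.24% of all genes; at an unadjusted p below 0.05 it held 1 of the 10, Elavl2, and 9.14% of all genes. The median log2 difference was 0.01 at P14 and 0.02 at P7, against 0.003 and 0.01 for all genes.

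**Figure D2:**
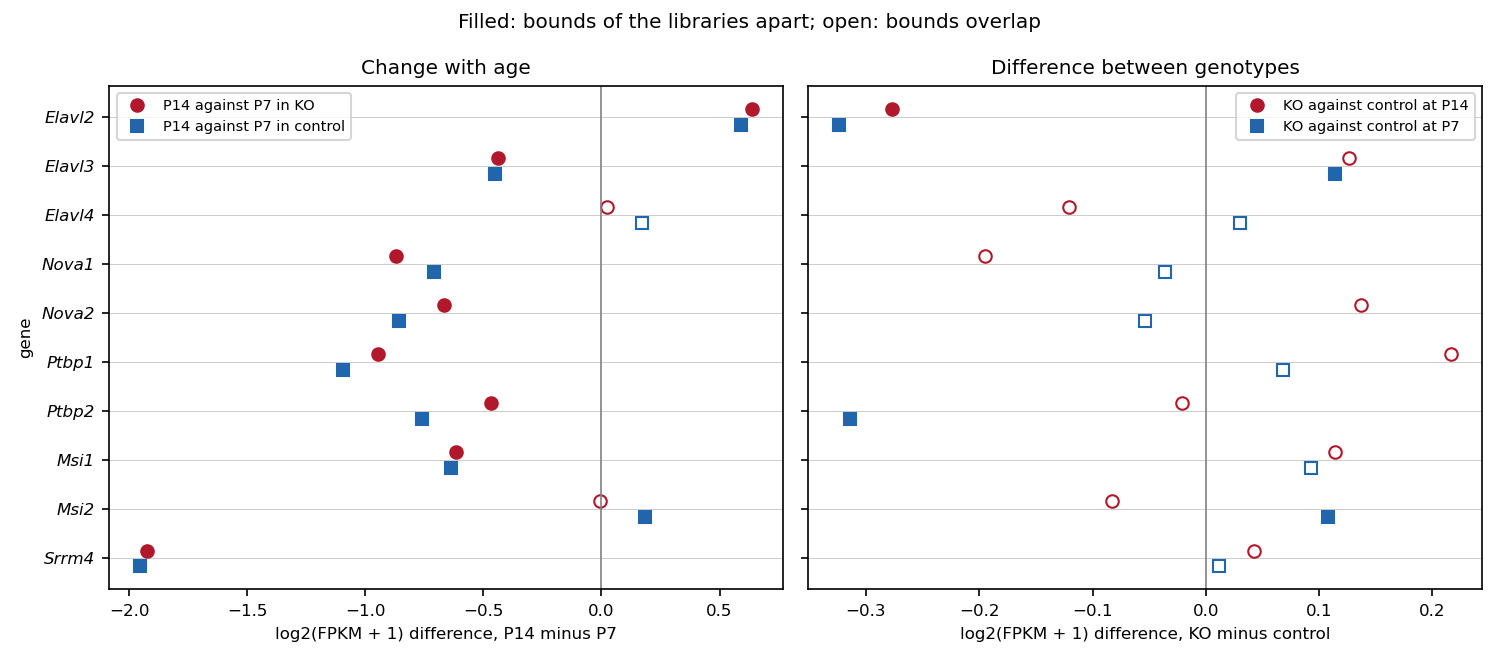
Difference on the log2(FPKM + 1) scale (horizontal axis) for each gene, P14 minus P7 in KO (circles) and control (squares) on the left, and KO minus control at P14 (circles) and P7 (squares) on the right, on separate scales. Filled symbols mark bounds that did not overlap; the age changes run from -1.95 to 0.64 and the genotype differences from -0.32 to 0.22.

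The promoters of 3 of the genes are shown because these genes mark the extremes of the pattern: Srrm4 and Ptbp1 with the deepest falls, and Elavl2 as the gene that rose with age and was lower in the KO retina. Each sequence holds the 250 bases before a transcript start, 5′ to 3′ on the gene's strand, from RefSeq on GRCm38.p6, with E-boxes (CANNTG, the element bound by basic helix-loop-helix factors) in capitals. They are chr5:116591818-116592067 on the minus strand for Srrm4, chr10:79854182-79854431 on the plus strand for Ptbp1, and chr4:91399985-91400234 on the minus strand for Elavl2, whose start farthest upstream of 6 is shown.
Srrm4: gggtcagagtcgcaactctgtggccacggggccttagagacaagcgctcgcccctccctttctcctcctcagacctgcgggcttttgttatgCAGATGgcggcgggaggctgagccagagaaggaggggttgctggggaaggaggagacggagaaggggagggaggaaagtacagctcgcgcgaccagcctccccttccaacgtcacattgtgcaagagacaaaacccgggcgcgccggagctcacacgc
Ptbp1: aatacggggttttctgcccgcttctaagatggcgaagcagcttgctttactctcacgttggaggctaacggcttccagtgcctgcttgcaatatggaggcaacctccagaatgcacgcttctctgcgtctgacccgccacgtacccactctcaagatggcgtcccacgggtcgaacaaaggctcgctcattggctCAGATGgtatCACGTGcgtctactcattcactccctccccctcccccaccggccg
Elavl2: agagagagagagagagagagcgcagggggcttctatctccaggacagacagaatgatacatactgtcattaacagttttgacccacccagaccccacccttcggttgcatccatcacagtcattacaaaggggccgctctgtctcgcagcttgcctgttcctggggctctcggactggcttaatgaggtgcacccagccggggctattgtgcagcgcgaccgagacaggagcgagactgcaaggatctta
The Srrm4 window held 1 E-box, the Ptbp1 window 2 and the Elavl2 window shown 0. Of the 6 Elavl2 windows, 3 that overlap held 1 each, which was the same site. E-boxes, which read the same on both strands, were in 13 of the 19 promoter windows of the 9 genes matched (all but Msi1) and in 66.2% of 32851 mouse promoter windows of the same length. Some windows of a gene overlap, so 1 site can count in more than 1 of the 19. TAATCC, the core bound by the photoreceptor factors Crx and Otx2, was in 0 of the 19 on either strand and in 6.25% of all windows. A match or its absence in these windows is a description only.

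Among the neuronal Hu genes, Elavl2 rose with age, Elavl3 fell and Elavl4 did not pass the test. Elavl2 spans bases 90917457 to 91066675 of chromosome 4 (mm9, the build of the files), and its level was 9.004 FPKM in KO retina and 11.1 FPKM in control retina at P14 (bounds 8.34 to 9.71 and 10.2 to 12.04). At P7 it was 5.42 FPKM in KO retina and 7.04 FPKM in control retina (bounds 4.89 to 5.96 and 6.41 to 7.67). Within each age the KO library was the lower, and within each genotype the P7 library was the lower, with no overlap of bounds in any of these pairs. The KO level was 80.9% of control at P14 and 77.0% at P7, log2 differences of -0.28 and -0.32. Over both ages the limma estimate was -0.30 (SE 0.10, adjusted p = 0.371, 0.274 to 0.686 over 8 settings), so the difference between the genotypes did not pass the correction although it had the same direction at both ages. The rise with age was 0.62 (SE 0.10, limma adjusted p = 0.000148).

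Elavl3, the most abundant neuronal Hu gene, moved the other way. It spans bases 21819449 to 21856467 of chromosome 9, and its level was 30.2 FPKM in KO retina and 27.6 FPKM in control retina at P14, and 41.2 FPKM in KO retina and 38.0 FPKM in control retina at P7. Its limma age estimate was -0.44 on the log2 scale (SE 0.08, adjusted p = 0.000302). In the KO retina its bounds lay just above those of the control at P7 (38.6 to 41.7 and 35.6 to 38.5) and overlapped them at P14, and the P7 bounds also overlapped on a TPM scale. The limma genotype estimate was 0.12 (SE 0.08, adjusted p = 0.703).

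Elavl4, on chromosome 4 from base 109876342 to 110024516, did not pass either test. It was at 10.3 FPKM in KO retina and 11.3 FPKM in control retina at P14, and at 10.1 FPKM in KO retina and 9.90 FPKM in control retina at P7. No genotype or age pair of these bounds was apart as deposited, although with median-of-ratios scaling the control retina was higher at P14 than at P7 (0.28). The limma age estimate was 0.10 (SE 0.10, adjusted p = 0.393). Because Elavl3 fell and Elavl2 rose, the makeup of the neuronal Hu mRNAs shifted: Elavl2 made up 18.2% of the summed FPKM of the 3 genes in the KO and 22.3% in the control library at P14, against 9.56% in the KO and 12.8% in the control library at P7. The sum itself was 49.5 FPKM in KO retina and 49.95 FPKM in control retina at P14, and 56.8 FPKM in KO retina and 54.9 FPKM in control retina at P7.

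Hu proteins are found in ganglion, amacrine and horizontal cells of the retina, and in whole retina fewer cells of a type and less RNA per cell cannot be told apart. Of 10 ganglion cell markers 7 were higher and 0 lower in the KO retina at P14 beyond counting error (sums of 1383 FPKM in KO retina and 1201 FPKM in control retina), and 5 higher and 0 lower at P7 (846 FPKM in KO retina and 755 FPKM in control retina). Of 8 amacrine markers 1 was higher and 2 lower at P14 (891 FPKM in KO retina and 847 FPKM in control retina), and 0 higher and 5 lower at P7 (528 FPKM in KO retina and 560.4 FPKM in control retina). Of the horizontal cell markers 2 of 4 were higher at P14 (205 FPKM in KO retina and 168 FPKM in control retina, all 5 summed) and 3 of 5 at P7 (94.5 FPKM in KO retina and 82.5 FPKM in control retina), with 0 lower. The ganglion and horizontal markers that were apart were higher in the KO retina, and most of the amacrine markers that were apart were lower. None of these markers was at 0. Their part in the values of Elavl2, Elavl3 and Elavl4 was not tested.

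**Figure D3:**
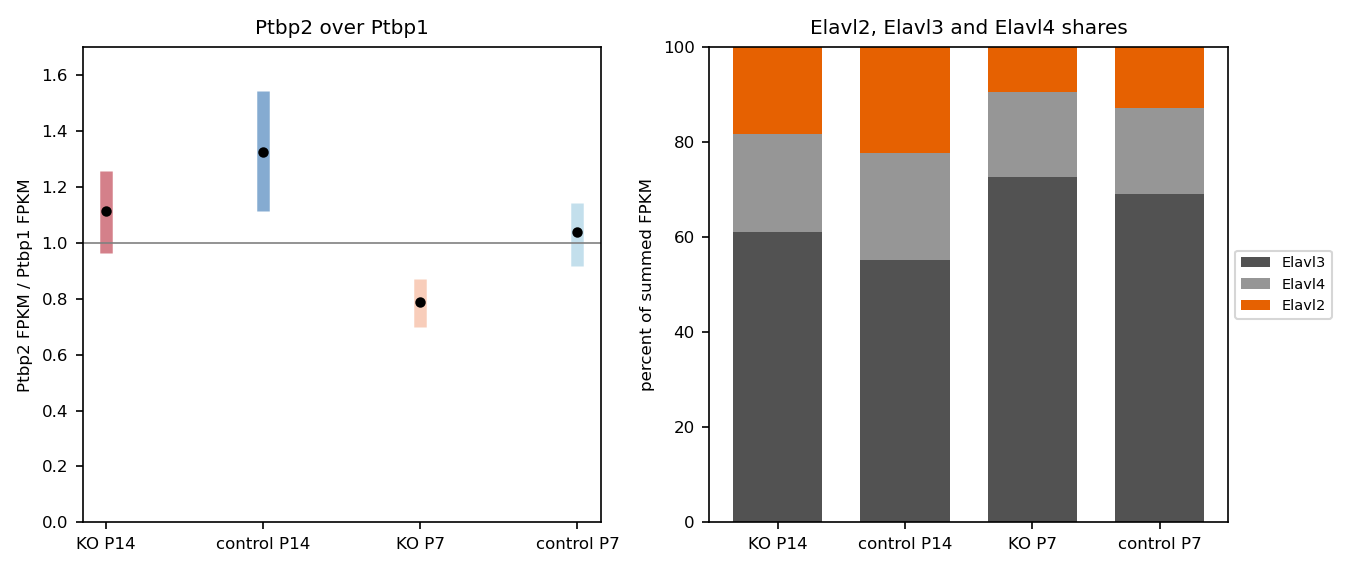
Left, Ptbp2 FPKM divided by Ptbp1 FPKM in each library (point), with the range that the bounds of both genes allow (bar) and a line at 1. Right, share of Elavl2, Elavl3 and Elavl4 in their summed FPKM, in percent; Elavl2 took 18.2% in the KO and 22.3% in the control library at P14, against 9.56% and 12.8% in the KO and control libraries at P7.

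The polypyrimidine tract binding protein genes fell with age, Ptbp1 further than Ptbp2. Ptbp1, on chromosome 10 from base 79317350 to 79327178, was at 18.8 FPKM in KO retina and 16.1 FPKM in control retina at P14, and at 37.2 FPKM in KO retina and 35.4 FPKM in control retina at P7. It fell by 1.02 on the log2 scale (SE 0.09, limma adjusted p = 5.87e-07), to 50.6% of the P7 level in the KO and 45.3% in the control retina. At P14 the KO level was 117% of control, with bounds that overlapped narrowly (17.0 to 19.6 in the KO and 14.4 to 17.2 in the control library), and the limma genotype estimate was 0.14 (SE 0.09, adjusted p = 0.662).

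Ptbp2 was lower in the KO retina beyond counting error at P7, while its bounds overlapped at P14. It spans bases 119421660 to 119486306 of chromosome 3, and its level was 29.3 FPKM in KO retina and 36.7 FPKM in control retina at P7 (bounds 26.6 to 29.7 and 33.5 to 37.1), or 79.9% of control. At P14 it was 21.0 FPKM in KO retina and 21.3 FPKM in control retina, with overlapping bounds. The genotype difference was therefore -0.02 at P14 and -0.31 at P7 on the log2 scale, and the change between the ages has no test with 1 library a group. The limma genotype estimate was -0.17 (SE 0.09, adjusted p = 0.627). The limma age estimate was -0.61 (SE 0.09, adjusted p = 8.01e-05), with differences of -0.47 in the KO retina and -0.76 in the control retina.

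The ratio of Ptbp2 to Ptbp1, which neuronal differentiation is known to raise, was 1.11 in the KO and 1.32 in the control library at P14, and 0.789 in the KO and 1.04 in the control library at P7. The bounds of both genes allow 0.964 to 1.26 in the KO and 1.11 to 1.54 in the control library at P14, and 0.700 to 0.871 in the KO and 0.919 to 1.14 in the control library at P7. The ratio was lower in the KO library at each age, with ranges that overlapped at P14 and did not at P7. It was higher at P14 than at P7 in each genotype, with ranges that did not overlap in the KO and overlapped slightly in the control retina.

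Srrm4 showed the deepest fall of the 10 genes and no genotype difference beyond counting error. It spans bases 116889282 to 117041826 of chromosome 5, and was at 9.62 FPKM in KO retina and 9.32 FPKM in control retina at P14, against 39.3 FPKM in KO retina and 39.0 FPKM in control retina at P7. The P14 level was 24.5% of the P7 level in the KO and 23.9% in the control retina. The limma age estimate was -1.94 (SE 0.09, adjusted p = 3.24e-09), a fall exceeded by 0.603% of the 12934 genes fitted. The genotype estimate was 0.03 (SE 0.09, adjusted p = 0.973), and the bounds allow a ratio of KO to control of 0.914 to 1.17 at P14 and 0.945 to 1.08 at P7.

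**Figure D4:**
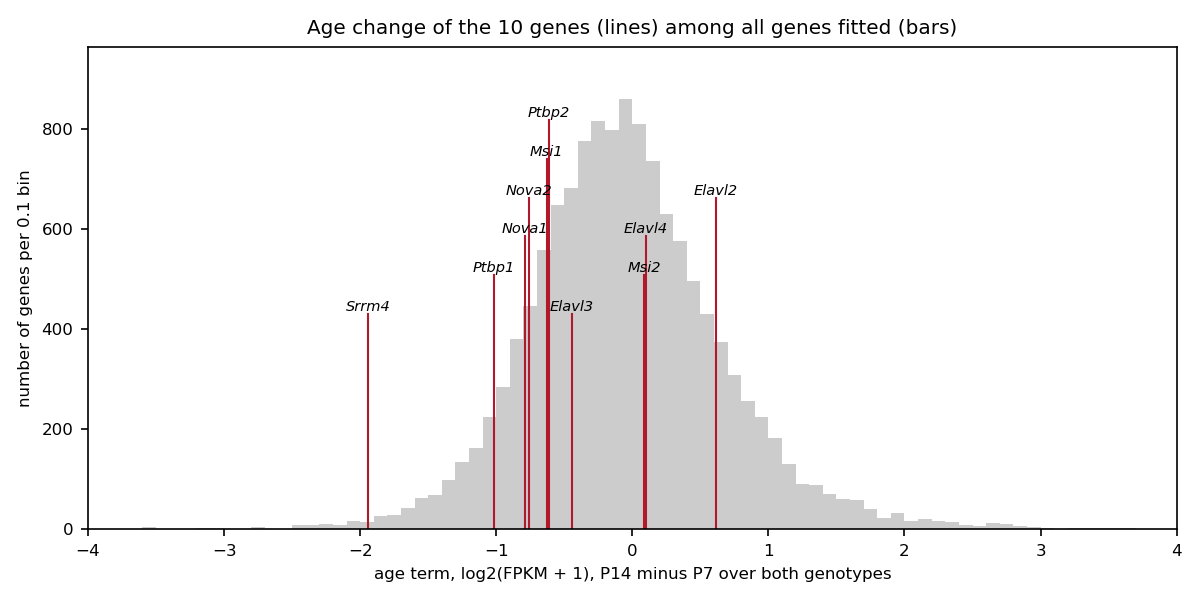
Number of genes (vertical axis) per 0.1 bin of the limma age term, P14 minus P7 on the log2(FPKM + 1) scale (horizontal axis), for the 12934 genes fitted, of which 12 lie outside the plotted range. Red lines mark the 10 genes, of which Srrm4 at -1.94 stands farthest out and Elavl2 at 0.62 farthest on the positive side; line heights carry no value.

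The Nova genes fell together. Nova1, on chromosome 12 from base 47795504 to 47919762, was at 4.21 FPKM in KO retina and 4.96 FPKM in control retina at P14, and at 8.51 FPKM in KO retina and 8.75 FPKM in control retina at P7. Nova2, on chromosome 7 from base 19511237 to 19550668, was at 3.43 FPKM in KO retina and 3.03 FPKM in control retina at P14, and at 6.03 FPKM in KO retina and 6.30 FPKM in control retina at P7. Every P14 level lay below every P7 level of its gene, and the falls were 0.79 for Nova1 and 0.76 for Nova2 in size on the log2 scale (SE 0.11 each, limma adjusted p = 3.06e-05 and 5.92e-05). Between the genotypes the bounds overlapped for both genes at both ages, although Nova1 at P14 became lower beyond counting error in the KO retina on a TPM scale. Nova1 exceeded Nova2 in each library, by a ratio of 1.23 in the KO and 1.64 in the control library at P14, and of 1.41 in the KO and 1.39 in the control library at P7.

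Of the Musashi genes, Msi1 fell with age and Msi2 did not pass the test. Msi1, on chromosome 5 from base 115879694 to 115904211, was the most abundant of the 10 genes, at 142 FPKM in KO retina and 131 FPKM in control retina at P14, and at 218 FPKM in KO retina and 204 FPKM in control retina at P7. It fell by 0.63 on the log2 scale (SE 0.07, limma adjusted p = 4.61e-06). Both KO levels were above their controls, at 108% at P14 and 107% at P7, with bounds that overlapped narrowly at both ages (120.3 to 129.8 in the KO and 110.5 to 120.5 in the control library at P14). With median-of-ratios scaling the P7 bounds were apart, higher in the KO retina (0.10). The limma genotype estimate was 0.10 (SE 0.07, adjusted p = 0.697).

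Msi2, on chromosome 11 from base 88152884 to 88579543, was at 50.3 FPKM in KO retina and 53.3 FPKM in control retina at P14, and at 50.5 FPKM in KO retina and 46.8 FPKM in control retina at P7. It was higher in the KO retina at P7 beyond counting error (bounds 49.4 to 52.5 and 45.7 to 48.7) while the P14 bounds overlapped. On a TPM scale the P7 bounds overlapped instead, and at P14 Msi2 was lower in the KO retina beyond counting error (-0.14). Between the ages it was higher at P14 beyond counting error in the control retina, and its bounds overlapped in the KO retina. These calls turned with the scale: on a TPM scale the control bounds overlapped and the KO retina was lower at P14 (-0.12), and with median-of-ratios scaling the KO retina was higher at P14 (0.10). The limma age estimate was 0.09 (SE 0.08, adjusted p = 0.340), which turned to -0.01 on a TPM scale and became 0.20 (adjusted p = 0.0443) with median-of-ratios scaling. Msi1 exceeded Msi2 2.82 times in the KO and 2.45 times in the control library at P14, and 4.31 times in the KO and 4.36 times in the control library at P7. All 4 ratios lie above the highest that the bounds allow, such as 2.30 to 2.63 in KO retina at P14, since Msi1 lay above its own upper bound.

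Markers of some retinal cell classes changed in level in the same interval. Of 7 markers of cycling progenitors, 3 reached 1 FPKM at an age and all 3 were lower at P14 in each genotype. The sums of all 7 were 10.7 FPKM at P14 and 26.0 FPKM at P7 in the KO retina. In the control retina these sums were 9.85 FPKM at P14 and 26.4 FPKM at P7. Of the 7, 1 was at 0 in the KO retina at P14. Of 6 rod markers 5 were higher and 1 lower at P14 in each genotype, and the sums were 19032 FPKM at P14 and 4748 FPKM at P7 in the KO retina and 17890.2 FPKM at P14 and 4657 FPKM at P7 in the control retina. Amacrine markers were higher at P14 for 6 of 8 in the KO and 7 of 8 in the control retina, with 1 lower in each. Cone markers were higher for 5 of 6 in the KO and 6 of 6 in the control retina, with 0 lower. Ganglion cell markers went both ways (6 of 10 higher and 4 lower in KO retina, 4 higher and 3 lower in control retina). So did horizontal cell markers (2 of 5 higher and 3 lower in each). The part of these changes in the age differences of the 10 genes was not tested.

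Within a library the order of the levels was the same at its top and moved below it. Msi1 was the highest and Msi2 the next in all 4 libraries. In the P14 libraries Elavl3 followed, then Ptbp2 and Ptbp1, and the Nova genes were the lowest. In the P7 libraries Srrm4 stood among Elavl3, Ptbp1 and Ptbp2, whereas at P14 it stood beside Elavl2 and Elavl4. Neighbours whose bounds overlapped were Ptbp2 and Ptbp1, Elavl4 and Srrm4, and Srrm4 and Elavl2 in the KO library at P14, and Elavl4 and Elavl2 in the control library at P14. At P7 they were Elavl3 and Srrm4, and Nova2 and Elavl2, in the KO library, and Srrm4, Elavl3, Ptbp2 and Ptbp1 in turn, Elavl4 and Nova1, and Elavl2 and Nova2 in the control library.

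A wider list of 60 RNA-binding and splicing regulators, of which 59 were matched and 52 fitted, also fell with age on balance. The limma age term called 9 higher and 32 lower, with a median of -0.48 against -0.08 for all genes fitted, of which 30.7% were called higher and 40.6% lower. The 3 deepest falls in the control retina were those of Celf3, a CELF-family splicing regulator, at 38.0 FPKM in KO retina and 38.8 FPKM in control retina at P14 against 122 FPKM in KO retina and 131 FPKM in control retina at P7, and of Srsf2 (-1.42 in control retina) and Rbm24 (-1.22 in control retina). The 3 largest rises were those of Cpeb1, a regulator of mRNA polyadenylation (1.26 in control retina), Khdrbs3 (0.88) and Mbnl2, a muscleblind splicing regulator (0.83). Cpeb1 was low, at 2.86 FPKM in KO retina and 3.44 FPKM in control retina at P14. At P7 it was below 1 FPKM, at 0.551 FPKM in KO retina and 0.856 FPKM in control retina. All 6 passed the age test, with limma adjusted p-values of 3.60e-06 or lower.

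Between the genotypes 4 of 51 genes of that list were higher and 11 lower in the KO retina at P14, where 7.45% of all genes were higher and 8.24% lower. At P7 7 were higher and 5 lower, against 7.34% and 6.1% of all genes. The genotype term of the limma fit called 0 of 52, of which 4 had an unadjusted p below 0.05, as 9.14% of all genes did. Those apart in the same direction at both ages were Srsf1, Tardbp and Srrm2, all lower in the KO retina, and Pcbp4, which was higher. Of all genes 1.42% were lower and 1.5% higher at both ages. Srsf1, an SR splicing factor, was at 23.6 FPKM in KO retina and 28.7 FPKM in control retina at P14, and at 36.3 FPKM in KO retina and 44.6 FPKM in control retina at P7. Tardbp, which encodes the RNA-binding protein TDP-43, was at 16.3 FPKM in KO retina and 19.5 FPKM in control retina at P14, and at 9.86 FPKM in KO retina and 12.4 FPKM in control retina at P7. Srrm2, a nuclear speckle protein gene, was apart more widely at P14 (22.8 FPKM in KO retina and 30.0 FPKM in control retina) than at P7 (62.8 FPKM in KO retina and 65.7 FPKM in control retina). Pcbp4 differed by 0.09 at P14 and 0.19 at P7 on the log2 scale, and its P14 bounds overlapped on a TPM scale.

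Of 26 transcripts known as targets of these proteins, 25 were matched and fitted, and 10 rose and 10 fell with age in the limma fit, against 30.7% and 40.6% of all genes. Dcx, a microtubule protein gene of young neurons, fell to 0.715 FPKM in KO retina and 0.837 FPKM in control retina at P14, against 11.7 FPKM in KO retina and 10.3 FPKM in control retina at P7. Agrn, whose neural exons Nova proteins regulate, and Reln were the other deep falls, with control differences of -2.16 and -2.10. Among the rises were those of Snap25 (1.11 in control retina), the synaptic vesicle fusion gene, and Impdh1 (0.96). Limma adjusted p-values of these 5 genes were 9.12e-08 or lower.

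At P14 2 of 23 targets were higher and 6 lower in the KO retina beyond counting error, against 7.45% and 8.24% of all genes. At P7 7 of 25 were higher and 3 lower, against 7.34% and 6.1% of all genes. The genotype term called 0 of the 25 targets, of which 4 had an unadjusted p below 0.05, against 9.14% of all genes. Apart in the same direction at both ages were 3 targets, where 1.42% of all genes were lower and 1.5% higher. The AMPA receptor gene Gria2 was lower in the KO retina beyond counting error at both ages, at 7.27 FPKM in KO retina and 11.9 FPKM in control retina at P14, and at 7.42 FPKM in KO retina and 8.78 FPKM in control retina at P7. Cdkn1a, a cell cycle inhibitor gene, was higher at both ages, at 6.75 FPKM in KO retina and 4.80 FPKM in control retina at P14, and at 20.2 FPKM in KO retina and 16.5 FPKM in control retina at P7. Impdh1 was higher at both ages by 0.18 at P14 and 0.10 at P7, and its P7 bounds overlapped on a TPM scale.

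The genes whose pattern over the 4 libraries was most like that of Elavl2 were Tardbp, Clk1 and Mut, at distances of 0.04, 0.05 and 0.06 between centred log2 levels, among 12602 genes. Clk1 was at 22.8 FPKM in KO retina and 27.9 FPKM in control retina at P14, and at 14.4 FPKM in KO retina and 18.9 FPKM in control retina at P7. Those most like Srrm4 were BC005764, Notch1 and Vash1, at 0.05, 0.05 and 0.06. Notch1 was at 2.71 FPKM in KO retina and 2.63 FPKM in control retina at P14, and at 13.8 FPKM in KO retina and 13.1 FPKM in control retina at P7. With 4 libraries such likeness is a description of levels.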

How the data were processed

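RNA of whole retina was measured in 4 libraries, 1 per group. Total RNA was, per the labels' protocols, reverse-transcribed with random primers, and amplified cDNA of about 200 bp was read as 36-base single ends. No strand marking is named, so overlapping antisense genes cannot be told apart. The authors deposited FPKM per gene with lower and upper bounds, naming Cufflinks 2.1.1, TopHat2 2.0.8b and CASAVA 1.8.2 with mm9, per the submitters' processing notes. The annotation was not given in the sources used here. The files hold no counts, so depth is unknown, and bounds cover counting error only.

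Rows of a symbol were summed (each of the 10 genes has 1 row), 16 symbols with a failed value and 740 small RNAs or loci under 300 bases were left out, and genes at 1 FPKM or more in either library were compared. limma 3.58.1 (R 4.3.3), with trend, fitted genotype and age to log2(FPKM + 1) where 2 or more libraries reached 1 FPKM. In 20 simulated sets its genotype term recovered a median of 96.5% of 2-fold changes and 57.5% of the smaller changes put in. The median share of false calls was 7.44%. The simulated noise had an assumed size, and the changes put in were equal at both ages. Even the smaller ones exceeded the largest genotype estimate of the 10 genes, that of Elavl2 (ratio of 0.812). These shares therefore do not give the power of the fit for the 10 genes. Genotype differences short of 2-fold can go uncalled even under these assumptions. Locus starts were counted from 1. Alternatives changed the pseudocount, scale, floor, call rule, small RNAs and trend. The genes named are the 10, Fezf2, and from the wider lists those apart in the same direction at both ages and the 3 largest age changes each way. Of these, 1 is not reported here. Members and lists were chosen with earlier results of these data known.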

Additional observations from a re-analysis of the deposited data

How the results depend on the processing

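No paired analysis was possible because each group holds 1 library and the labels number no replicates or animals; the additive fit already compares the genotypes within each age. Leaving out a library leaves the additive fit no residual degree of freedom, and each of the 10 genes has 1 row, so no other sum could be tried. The 7 falls and the rise of Elavl2 with age kept their direction and passed the test in all 8 settings, and Elavl2 was lower in the KO retina beyond counting error at both ages under each scale. Median-of-ratios scaling moved the median age difference of all genes by 0.10 in each genotype, and 2 of the 10 were then higher with age in the KO retina and 2 in the limma age term, with 3 in the control retina. With TPM scaling, or a 1.2-fold minimum, 1 of the 10 was higher with age in the control retina and at P7 the KO retina held 0 higher. TPM scaling made 3 of the 10 lower in the KO retina at P14. It turned the limma genotype estimates of Msi2 to -0.0371 and Srrm4 to -0.0205 and the age estimate of Msi2 to -0.0128, none of them called.

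Over all genes, TPM scaling gave 531 higher and 1660 lower at P14 and 491 higher and 1177 lower at P7, so that 24.2% of calls at P14 and 29.4% at P7 were higher, against 47.5% and 54.6% as deposited. The 1.2-fold minimum left 405 higher and 609 lower at P14 and 237 higher and 461 lower at P7. The limma genotype term called 3 genes lower with no floor, and 28 higher and 47 lower with a floor of 5 FPKM. It called 7 higher and 27 lower with small RNAs kept, and 17 lower with no trend. The cause was not tested.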
